A study of Mus musculus with 8 samples.

Results

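Stromal cells from mouse intestine with a low level of the receptor Pdgfra were sequenced after growth with enteroids, small epithelial cultures made from duodenum, that carried a gain-of-function β-catenin (BcatGOF). They were set against the same kind of stromal cells grown with no epithelium (mesenchyme only). The comparison takes 5 of the 8 libraries of the series, 2 of BcatGOF coculture (replicates 1 and 2) and 3 of mesenchyme only (replicates 1, 2 and 3), and all 24930 genes of the deposited FPKM table. FPKM is a number of fragments divided by transcript length and by the size of the library. The other 3 libraries, of coculture with wild-type enteroids, enter only the estimate of the spread. For the cocultures, the labels give 50000 seeded stromal cells, a droplet of basement membrane matrix, 7 days, and a medium without EGF, R-spondin1 or Noggin. For mesenchyme only the same droplet format is given, with no cell number or day of its own. In all groups GFP-positive cells were then sorted and DAPI was used to set dead cells aside. The labels do not say which allele makes β-catenin active, what drives its expression or what drives GFP, nor whether libraries came from separate animals or cultures. The p-values therefore measure the spread between these libraries. A TGF-β receptor inhibitor, SB525334, appears in the description of the series and on no sample label.

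β-catenin carries the WNT signal from the cell surface to the nucleus, and its activation is an early step in intestinal tumours. Low-Pdgfra stromal cells lie around and below the crypts and secrete R-spondins, WNT ligands and the BMP antagonist Grem1, which sustain epithelial stem cells. Stromal cells next to tumour epithelium are known for secreting cytokines, growth factors and matrix enzymes. The question put by the comparison is which of these stromal programmes differ when the neighbouring epithelium has active β-catenin. Because the stromal cells were compared with cells grown alone, the effect of any epithelium and that of the mutant epithelium cannot be told apart in it.

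The 2 BcatGOF libraries were unlike each other. Column totals were 439338 and 581406 FPKM in BcatGOF coculture, against 438585, 577707 and 457418 FPKM in mesenchyme only, and 7311 to 7806 genes were at 0 in each. How many reads these rest on is unknown. The libraries numbered 2 carried Xist and those numbered 1 and 3 carried Y-linked genes in both groups, so each BcatGOF library was also set against the mesenchyme-only library of its own number (a same-number pair). On the log2(FPKM + 1) scale, used for every difference below, BcatGOF replicate 1 stood at least 1 apart from mesenchyme only replicate 1 in 246 of the 12927 tested genes. BcatGOF replicate 2 stood that far from mesenchyme only replicate 2 in 1452 genes. The mesenchyme-only libraries stood that far from each other in 707, 825 and 995 genes. By this count the first BcatGOF library was nearer to its partner than any 2 mesenchyme-only libraries were to each other, and the second was further away than any of them. The median absolute difference was 0.114 in pair 1 and 0.273 in pair 2, against 0.281, 0.227 and 0.345 between mesenchyme-only libraries. By that measure pair 1 was again the nearest, and pair 2 lay within the mesenchyme-only range. Between the 2 BcatGOF libraries 1824 genes were at least 1 apart. The first principal component, with 40.3% of the variance, put BcatGOF coculture at -19.9 and 63.6 and mesenchyme only at -27.4, 0.945 and -38.9.

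**Figure D1:**
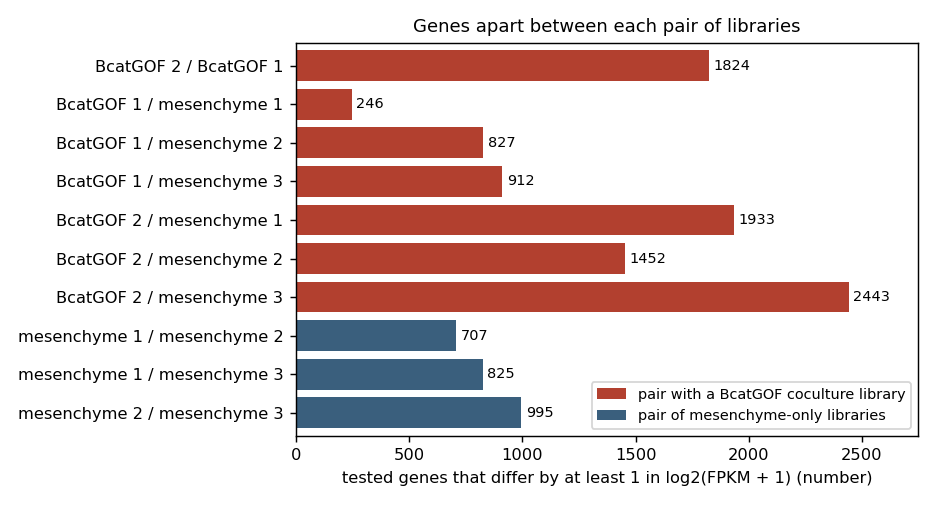
Number of tested genes (of 12927) that differ by at least 1 in log2(FPKM + 1) between each pair of the 5 libraries, with bars for pairs that hold a BcatGOF coculture library and for pairs of mesenchyme-only libraries. BcatGOF 1 and mesenchyme 1 form the nearest pair with 246 genes, and BcatGOF 2 and mesenchyme 3 the furthest with 2443.

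Across all genes, 1 passed. Snora15, a small nucleolar RNA of the class that guides pseudouridylation of other RNAs, was at 0 in both BcatGOF libraries, against 10.8, 8.44 and 9.95 FPKM in mesenchyme only. It fell by 3.42 on the log2 scale (SE 0.18) in a linear model over the 8 libraries, with an adjusted p of 0.00129 (limma, Benjamini-Hochberg over 12927 genes). FPKM divides by transcript length, so few fragments make a high value in so short a gene. The libraries were made from poly-A RNA, and how well they measure small nucleolar RNAs was not tested. Among the genes tested, 0.0% passed as higher and 0.00774% as lower. At an unadjusted p under 0.05, limma gave 372 genes higher (2.88%) and 339 lower (2.62%), and the smallest adjusted p of any gene other than Snora15 was 0.636. With BcatGOF replicate 1 left out, so that BcatGOF replicate 2 stands alone and is assumed to vary like the other groups, 105 genes passed as higher and 93 as lower in limma. In that fit the log2 fold changes were 2.24 for Vegfa, 7.23 for Il11, -4.91 for Serpina3n and -5.67 for Ptn. The genes named in the text were chosen partly on these same values. No difference described from here on passed the adjusted threshold with both libraries in the fit, and what follows describes values.

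Descriptive counts used the same-number pairs and the overlap of the groups. Of the tested genes, 28.9% were higher in both pairs and 28.5% lower in both. In 8.49% both BcatGOF libraries lay above all 3 mesenchyme-only libraries, and in 7.82% both lay below. Counts within the gene lists below are to be set against these shares. Differences of at least 1 in both pairs were found in 65 genes that were higher (0.503%) and 30 that were lower (0.232%). In pair 1, 154 genes were at least 1 higher (1.19%) and 92 at least 1 lower (0.712%), against 640 (4.95%) and 812 (6.28%) in pair 2. Of the 640 genes at least 1 higher in pair 2, 468 were also above 0 in pair 1, and of the 812 at least 1 lower, 480 were below 0 there. Over all 12927 tested genes, 6523 were above 0 and 6336 below 0 in pair 1. In 36 genes the pairs went at least 1 in opposite directions. Most of the large differences were therefore carried by BcatGOF replicate 2, with smaller differences in pair 1 that often had the same sign.

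**Figure D2:**
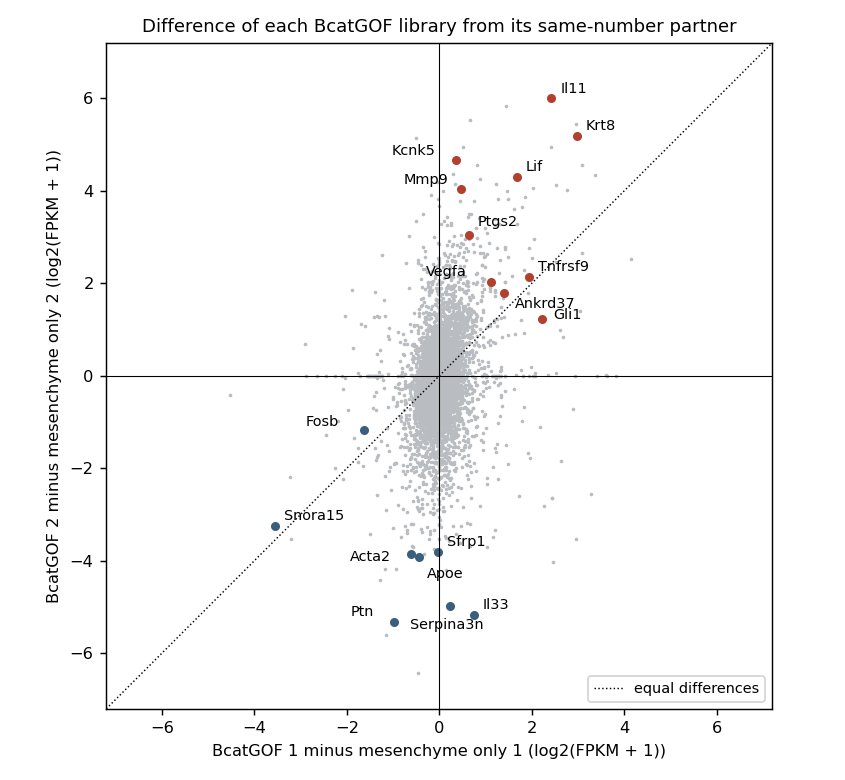
Difference in log2(FPKM + 1) of BcatGOF 1 from mesenchyme only 1 (horizontal) and of BcatGOF 2 from mesenchyme only 2 (vertical) for the 12927 tested genes, with named genes in red where the second is positive and in blue where it is negative. The cloud is taller than it is wide, Il11 reaches 2.42 and 5.99, and Snora15 lies at -3.56 and -3.24.

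Epithelial transcripts were higher in both cocultured libraries. The whole list of 20 epithelial markers summed to 34.5 and 132 FPKM in BcatGOF coculture, against 4.27, 7.22 and 7.66 FPKM in mesenchyme only, and 12 of the 20 passed the filter on low values, which a gene can pass through the cocultures alone. Krt8, a keratin of simple epithelia, was at 7.27 and 38.5 FPKM in BcatGOF coculture, against 0.0542, 0.0848 and 0.0673 FPKM in mesenchyme only. Its partner Krt18 was at 4.95 and 17.9 FPKM in BcatGOF coculture, against 0.0363, 0.0756 and 0.0896 FPKM in mesenchyme only. Gpx2, a glutathione peroxidase of gut epithelium, was at 7.52 and 23.7 FPKM in BcatGOF coculture, against 0, 0.0521 and 0 FPKM in mesenchyme only. These genes were near 0 in stromal cells grown alone and highest in BcatGOF replicate 2. Epcam, the common epithelial adhesion molecule, reached 1.75 and 5.63 FPKM in BcatGOF coculture, against 0.0234, 0 and 0.0581 FPKM in mesenchyme only. Of the markers, Olfm4 and Tff3 were at 0 in BcatGOF replicate 2 and Cldn4, Tff3, Olfm4, Cdx1 and Cdx2 were at 0 in all 3 mesenchyme-only libraries. The genes of the stroma described below differed in the same libraries as these markers, and the part of epithelial RNA in them was not tested. The 11 immune markers summed to 53.4 and 138 FPKM in BcatGOF coculture, against 60.5, 121 and 81.4 FPKM in mesenchyme only, with the pan-leukocyte gene Ptprc at 0 in both BcatGOF libraries. The 6 glial and neural markers summed to 0.692 and 9.14 FPKM in BcatGOF coculture, against 0.591, 0.588 and 0.915 FPKM in mesenchyme only. Most of the last sum in BcatGOF replicate 2 came from S100b, the only 1 of the 6 that passed the filter on low values. The epithelial sum thus separated the groups and the immune sum did not. The neural sum was high in BcatGOF replicate 2 alone, through that 1 gene. The 5 mesothelial markers, among them Krt19, which is also epithelial, summed to 16.6 and 55.6 FPKM in BcatGOF coculture, against 4.30, 18.8 and 21.1 FPKM in mesenchyme only. Of these, mesothelin (Msln) was at 0.98 and 5.45 FPKM in BcatGOF coculture, against 0.0233, 0.0243 and 0 FPKM in mesenchyme only, and the transcription factor Wt1 at 4.72 and 3.29 FPKM in BcatGOF coculture, against 2.30, 16.9 and 18.4 FPKM in mesenchyme only. Msln, like Krt19, did not overlap, Wt1 overlapped, and the part of mesothelial, immune or neural RNA in the results was not tested. In sorted cells measured in bulk, fewer cells of a type and less RNA per cell cannot be told apart.

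Pdgfra itself was at 99.8 and 52.4 FPKM in BcatGOF coculture, against 92.3, 101 and 134 FPKM in mesenchyme only, so the receptor that names the cells was present throughout and lowest in BcatGOF replicate 2. Ctnnb1, the stromal cells' own β-catenin gene, was at 279.8 and 297 FPKM in BcatGOF coculture, against 232, 279.9 and 195 FPKM in mesenchyme only, with overlapping groups. The 12 genes of stromal identity had median differences of 0.12 and -0.98 in pairs 1 and 2. Of them 0 were higher and 4 lower in both pairs, against 28.9% and 28.5% of all tested genes.

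**Figure D3:**
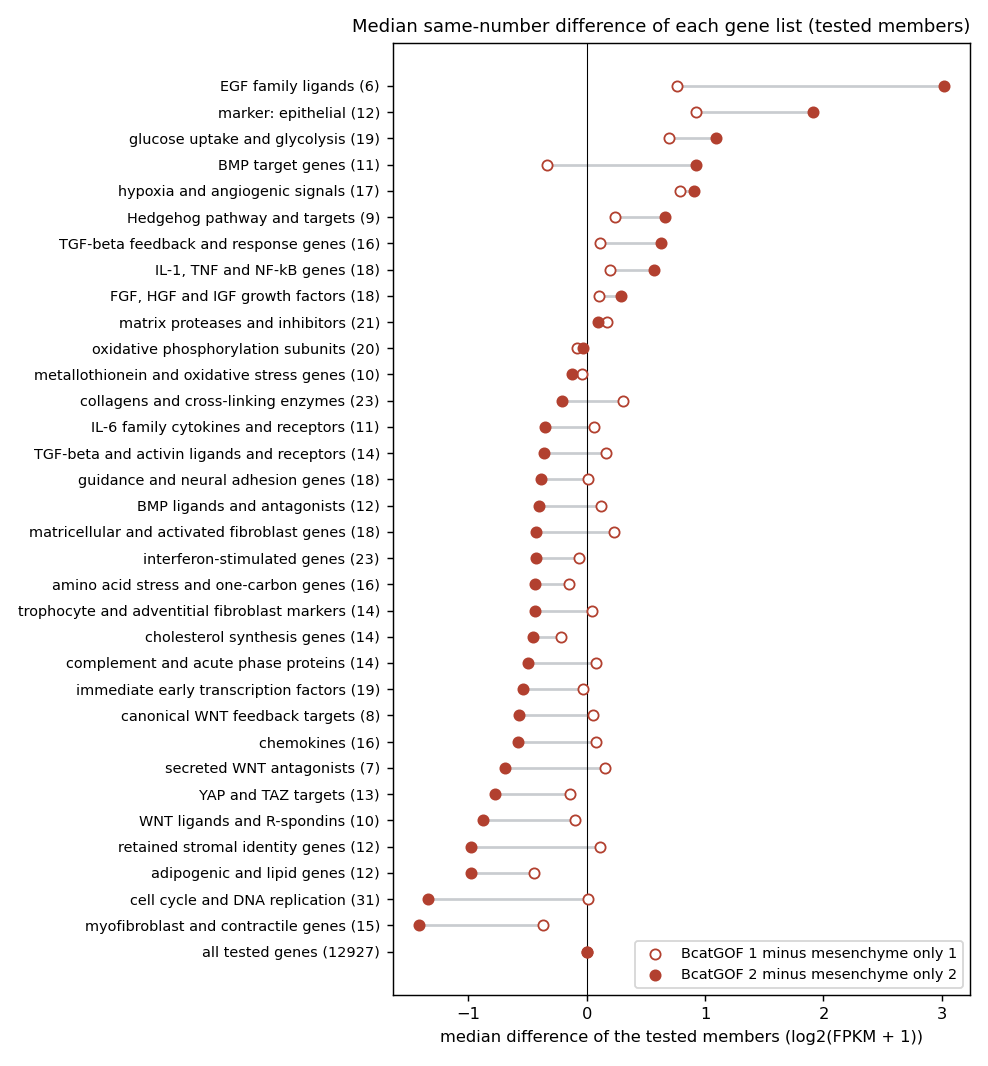
Median difference in log2(FPKM + 1) over the tested members of each gene list, for BcatGOF 1 minus mesenchyme only 1 (open circles) and BcatGOF 2 minus mesenchyme only 2 (filled circles), with the number of tested members in brackets. In pair 2, EGF family ligands stand furthest to the right and contractile genes furthest to the left of the lists shown. The pair 1 and pair 2 medians are 0.76 and 3.02 for the EGF family ligands and -0.37 and -1.42 for the contractile genes, and the median of all tested genes is near 0 in both pairs.

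Most genes of the response to low oxygen were higher in both BcatGOF libraries. When oxygen is scarce, hypoxia-inducible factors escape hydroxylation and bind the core letters ACGTG in the promoters of their targets. Of 17 tested genes of this list, 13 were higher in both pairs and 9 did not overlap on the high side. The median difference was 0.79 and 0.91 in pairs 1 and 2. Vegfa, the main growth signal for blood vessels, was at 254 and 659.5 FPKM in BcatGOF coculture, against 116, 161 and 144 FPKM in mesenchyme only. Ankrd37, a hypoxia-inducible gene, was at 19.1 and 45.5 FPKM in BcatGOF coculture, against 6.60, 12.5 and 3.68 FPKM in mesenchyme only, and Bnip3, which acts in the removal of mitochondria, at 106 and 306 FPKM in BcatGOF coculture, against 40.3, 95.1 and 59.1 FPKM in mesenchyme only. Both BcatGOF libraries lay above all 3 mesenchyme-only libraries for each of these. The fitted log2 fold changes were 1.55 for Vegfa (SE 0.38, unadjusted p 0.0038), 1.97 for Ankrd37 (SE 0.51) and 1.55 for Bnip3 (SE 0.52) in limma. Egln3, a prolyl hydroxylase that marks the factors for destruction, was at 24.0 and 85.9 FPKM in BcatGOF coculture, against 11.9, 20.2 and 16.8 FPKM in mesenchyme only. Ndrg1 was higher in BcatGOF replicate 1 than in replicate 2, at 49.5 and 34.1 FPKM in BcatGOF coculture, against 15.3, 17.7 and 16.8 FPKM in mesenchyme only. Angptl4 did not share the direction, at 51.2 and 22.3 FPKM in BcatGOF coculture, against 47.8, 94.0 and 51.6 FPKM in mesenchyme only. Mgarp, which encodes a mitochondrial protein and is not on the list, was at 7.47 and 34.9 FPKM in BcatGOF coculture, against 1.10, 5.18 and 5.34 FPKM in mesenchyme only.

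The stretch of 250 bases before the start is shown for 3 of the non-overlapping genes of glucose and oxygen metabolism. All 3 hold the core ACGTG, which not every gene of these lists does. Sequences are from RefSeq (GRCm38.p6), read 5′ to 3′ on the strand of the gene, with ACGTG or its reverse complement in capitals.
Ankrd37, chr8:45999851-46000100, minus strand: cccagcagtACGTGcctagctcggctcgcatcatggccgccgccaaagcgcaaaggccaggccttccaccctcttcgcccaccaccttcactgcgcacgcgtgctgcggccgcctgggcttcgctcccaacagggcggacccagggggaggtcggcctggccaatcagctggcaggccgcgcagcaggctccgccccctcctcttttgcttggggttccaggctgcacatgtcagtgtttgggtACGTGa
Bnip3, chr7:138909507-138909756, minus strand: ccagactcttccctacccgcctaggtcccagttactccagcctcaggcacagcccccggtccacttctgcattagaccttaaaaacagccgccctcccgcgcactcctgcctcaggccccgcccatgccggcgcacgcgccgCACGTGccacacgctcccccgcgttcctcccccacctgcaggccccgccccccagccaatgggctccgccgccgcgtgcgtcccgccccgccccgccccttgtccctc
Slc16a3, chr11:120948817-120949066, plus strand: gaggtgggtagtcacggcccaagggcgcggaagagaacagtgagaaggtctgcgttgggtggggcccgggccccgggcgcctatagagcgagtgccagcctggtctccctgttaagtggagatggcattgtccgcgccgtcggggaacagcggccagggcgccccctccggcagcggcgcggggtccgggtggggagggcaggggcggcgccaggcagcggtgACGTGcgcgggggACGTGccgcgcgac
In Bnip3 the 2 matches lie on opposite strands of the same 6 letters. Searched on both strands, the core was found in at least 1 listed promoter of 9 of 13 genes of the hypoxia list that have an entry (69.2%) and of 9 of 18 genes of glucose uptake and glycolysis (50.0%), against 18.5% of the 27025 genes with an entry. The shares depend on which genes the lists hold and not on the values of these libraries. The 27025 genes were not restricted to those tested here. The matches are of letters and were not tested for binding.

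Most genes of glucose use were also higher. Of 19 tested genes of glucose uptake and glycolysis, 17 were higher in both pairs and 6 did not overlap on the high side, with median differences of 0.70 and 1.09. Slc16a3, which exports lactate, was at 55.4 and 242 FPKM in BcatGOF coculture, against 14.9, 49.1 and 41.3 FPKM in mesenchyme only. Slc2a1, the main glucose importer, was at 104 and 202 FPKM in BcatGOF coculture, against 63.8, 87.1 and 88.0 FPKM in mesenchyme only. Hk2, a hexokinase, was at 17.6 and 23.4 FPKM in BcatGOF coculture, against 11.4, 14.1 and 11.1 FPKM in mesenchyme only. For these 3 genes both BcatGOF libraries were above the mesenchyme-only range. The most abundant enzymes overlapped between the groups. Gapdh was at 2183 and 6562 FPKM in BcatGOF coculture, against 1541, 2901 and 1995 FPKM in mesenchyme only, and Ldha, which makes lactate, at 658 and 2535 FPKM in BcatGOF coculture, against 449, 886 and 464 FPKM in mesenchyme only. In both, BcatGOF replicate 1 lay within the mesenchyme-only range and BcatGOF replicate 2 above it. Pdk1, which keeps pyruvate out of the mitochondrion, was at 13.4 and 24.9 FPKM in BcatGOF coculture, against 5.08, 11.4 and 9.88 FPKM in mesenchyme only. The oxidative phosphorylation list had median differences of -0.08 and -0.03, with 4 of 20 genes higher and 9 lower in both pairs. In the main limma fit 17 of them were higher and 3 lower, with a median log2 fold change of 0.17. That median was -0.14 with BcatGOF replicate 2 left out.

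The row of the microRNA gene Mir210, whose product is a known hypoxia-induced microRNA, was at 4.32 and 30.0 FPKM in BcatGOF coculture and at 0 in all 3 mesenchyme-only libraries. Mature microRNAs carry no poly-A tail, so in libraries selected for poly-A RNA this row is no measure of the mature forms. The mature sequences of the hairpin are shown for identity, from RefSeq (GRCm38.p6), with the seed (bases 2 to 8) in capitals.
miR-210-3p, chr7:141221407-141221428, minus strand: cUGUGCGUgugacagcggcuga
miR-210-5p, chr7:141221445-141221466, minus strand: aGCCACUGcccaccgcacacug
Their seeds differ, so the arms belong to different seed families.

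Il11 and Lif, secreted cytokines of the IL-6 family, were higher in both BcatGOF libraries, and the receptor genes Osmr and Il11ra1 were not. Il11, a cytokine that activates fibroblasts, was at 85.8 and 2587 FPKM in BcatGOF coculture, against 15.2, 39.6 and 6.78 FPKM in mesenchyme only. Lif, a relative that signals through the same gp130 chain, was at 21.8 and 145 FPKM in BcatGOF coculture, against 6.16, 6.42 and 6.40 FPKM in mesenchyme only. Neither gene overlapped, the 3 mesenchyme-only libraries were almost equal for Lif, and BcatGOF replicate 2 was the highest library for both. The fitted log2 fold changes were 4.78 (SE 1.40) for Il11 and 2.98 (SE 0.87) for Lif, each with an unadjusted p of 0.00962 in limma. Osmr, the oncostatin M receptor chain, was at 97.0 and 23.5 FPKM in BcatGOF coculture, against 91.3, 86.7 and 94.8 FPKM in mesenchyme only, and Il11ra1, the receptor for IL-11, at 57.0 and 54.7 FPKM in BcatGOF coculture, against 66.2, 113 and 150.0 FPKM in mesenchyme only. Osmr was low in BcatGOF replicate 2 alone, and Il11ra1 was below the mesenchyme-only range in both libraries. Over the 11 tested members of the family 4 were higher and 3 lower in both pairs.

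The 250 bases before one of the listed starts of Il11 are shown, from RefSeq (GRCm38.p6). The letters of an AP-1 site (TGANTCA, where N is any base) are in capitals. The start shown is the first listed one that holds these letters, so it was chosen for the match.
Il11, chr7:4778142-4778391, minus strand: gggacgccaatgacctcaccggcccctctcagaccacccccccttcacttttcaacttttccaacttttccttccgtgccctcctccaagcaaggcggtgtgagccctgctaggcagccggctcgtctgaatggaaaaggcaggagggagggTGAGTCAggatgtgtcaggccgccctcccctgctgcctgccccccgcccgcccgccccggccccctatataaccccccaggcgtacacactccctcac
The match lies 98 bases before the start. TGANTCA was found on either strand in 6.75% of all 32851 promoters of that length. Counted by gene, 7.82% of the 27025 genes with an entry had it in at least 1 listed promoter. The match was not tested for binding.

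Ligands of the EGF receptor family were mostly higher in both BcatGOF libraries. Of 6 tested ligands 5 were higher in both pairs and 4 did not overlap. Areg was at 27.6 and 368 FPKM in BcatGOF coculture, against 14.6, 18.4 and 9.19 FPKM in mesenchyme only. Ereg, the most abundant of them, was at 313 and 2058 FPKM in BcatGOF coculture, against 179.8, 224 and 145 FPKM in mesenchyme only. Btc was at 11.8 and 88.2 FPKM in BcatGOF coculture, against 7.29, 6.90 and 7.79 FPKM in mesenchyme only. In each the BcatGOF replicate 1 value was moderately above the mesenchyme-only range and the BcatGOF replicate 2 value far above it. Nrg1, which binds the ErbB3 and ErbB4 receptors, was more even across the pairs, at 48.5 and 116 FPKM in BcatGOF coculture, against 24.2, 30.7 and 14.3 FPKM in mesenchyme only. Epgn overlapped, at 1.86 and 21.6 FPKM in BcatGOF coculture, against 0.723, 2.14 and 0.717 FPKM in mesenchyme only. The list median was 0.76 and 3.02 in pairs 1 and 2, the highest of the lists in pair 2.

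**Figure D4:**
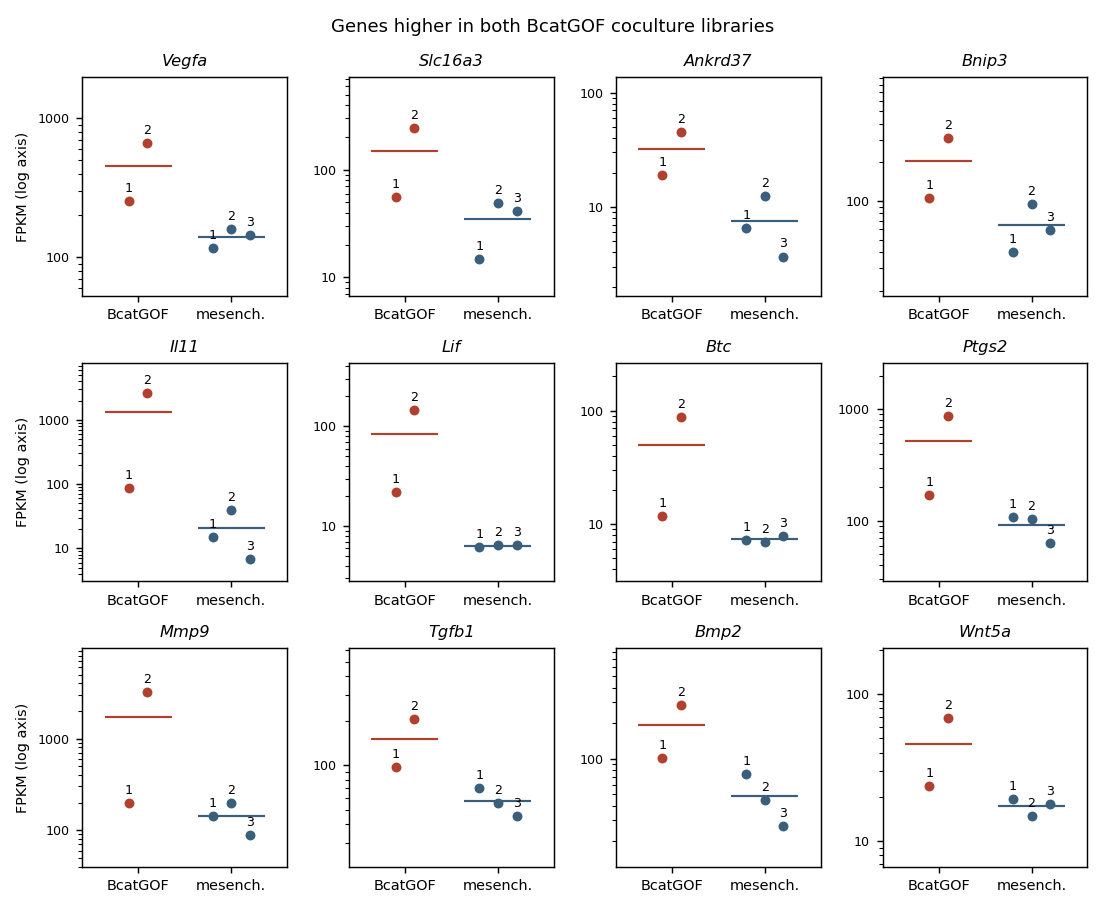
FPKM on log axes of 12 genes in each BcatGOF coculture library (left, red) and each mesenchyme-only library (right, blue), with the replicate number above each point and a line at the group mean. In all 12 both BcatGOF points lie above all 3 mesenchyme-only points, and BcatGOF replicate 2 is the highest.

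The 2 prostaglandin enzymes of the inflammatory list were higher in both BcatGOF libraries. Ptgs2, the inducible cyclooxygenase, was at 170.0 and 871 FPKM in BcatGOF coculture, against 109, 104 and 63.3 FPKM in mesenchyme only. Ptges, which makes prostaglandin E2 from its product, was at 83.0 and 424 FPKM in BcatGOF coculture, against 57.5, 65.1 and 42.5 FPKM in mesenchyme only. The enzymes of both steps were thus above the mesenchyme-only range, with fitted log2 fold changes of 2.09 (SE 0.73) for Ptgs2 and 1.78 (SE 0.65) for Ptges. Il1rl1, the receptor for the alarmin IL-33, was at 27.3 and 140.2 FPKM in BcatGOF coculture, against 8.27, 10.5 and 1.08 FPKM in mesenchyme only. Its ligand Il33 was at 352 and 7.59 FPKM in BcatGOF coculture, against 209, 308 and 174 FPKM in mesenchyme only. Receptor and ligand parted in BcatGOF replicate 2, where Il1rl1 was at its highest and Il33 at its lowest of the 5 libraries. Tnfrsf9, a receptor of the TNF family, was nearly equal across the pairs with differences of 1.94 and 2.14, at 50.1 and 167 FPKM in BcatGOF coculture, against 12.3, 37.1 and 8.99 FPKM in mesenchyme only. Of the 18 tested IL-1, TNF and NF-κB genes 10 were higher and 3 lower in both pairs, with 6 and 2 that did not overlap.

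Chemokines had no common direction, with 5 of 16 higher and 4 lower in both pairs, against 28.9% and 28.5% of all tested genes. The 2 that did not overlap were both on the low side, where 7.82% of all tested genes lay. Ccl2, which draws monocytes, was at 353 and 2935 FPKM in BcatGOF coculture, against 288, 626 and 220.4 FPKM in mesenchyme only. Cxcl12, which retains leukocytes and is typical of resting stroma, was at 307 and 21.8 FPKM in BcatGOF coculture, against 455, 297 and 592 FPKM in mesenchyme only. Both overlapped, and in both BcatGOF replicate 2 stood at the edge, high for Ccl2 and low for Cxcl12. Cxcl13, which draws B cells and is not on the list, was at 1.49 and 0.0506 FPKM in BcatGOF coculture, against 6.03, 10.2 and 30.9 FPKM in mesenchyme only, below the mesenchyme-only range in both. C3, the central complement protein, was at 569.6 and 299 FPKM in BcatGOF coculture, against 725, 643 and 1269 FPKM in mesenchyme only. Lcn2, an iron-binding acute phase protein, was at 505 and 14886 FPKM in BcatGOF coculture, against 527, 3739 and 768 FPKM in mesenchyme only, and Serpina3n, a protease inhibitor of the same response, at 342 and 6.57 FPKM in BcatGOF coculture, against 291, 237 and 168 FPKM in mesenchyme only. Lcn2 was already far higher in mesenchyme only replicate 2 than in replicates 1 and 3, and Serpina3n was low in BcatGOF replicate 2 alone.

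Several enzymes that cut the extracellular matrix were higher in both BcatGOF libraries. Mmp9, a gelatinase, was at 198 and 3223 FPKM in BcatGOF coculture, against 143, 197 and 87.6 FPKM in mesenchyme only. Mmp10, a stromelysin, was at 548 and 2144 FPKM in BcatGOF coculture, against 277, 419 and 76.4 FPKM in mesenchyme only. Mmp13, a collagenase, was at 50.5 and 351 FPKM in BcatGOF coculture, against 29.5, 24.6 and 8.33 FPKM in mesenchyme only. None overlapped, but Mmp9 in BcatGOF replicate 1 was level with mesenchyme only replicate 2. Mmp12, an elastase, was nearly equal in the 2 cocultured libraries at 9.78 and 10.2 FPKM in BcatGOF coculture, against 3.06, 0.639 and 0.287 FPKM in mesenchyme only (log2 fold change 2.43, SE 0.50, unadjusted p 0.00141 in limma). Over 21 tested proteases and inhibitors 8 were higher and 2 lower in both pairs, and 6 and 0 did not overlap. Among the collagens and cross-linking enzymes the pairs differed in sign, with medians of 0.31 and -0.21. Of 23 tested, 8 were higher and 1 lower in both pairs, and 14 were mixed. On the high side 3 did not overlap, and on the low side 1. In the main limma fit 8 were higher and 15 lower. The most abundant, Col3a1 and Col1a1, overlapped, with BcatGOF replicate 2 alone below the mesenchyme-only range. Col12a1, a collagen that decorates fibrils under tension, was at 121 and 166 FPKM in BcatGOF coculture, against 61.7, 38.2 and 86.5 FPKM in mesenchyme only, and Col5a3 at 47.6 and 37.8 FPKM in BcatGOF coculture, against 30.6, 19.9 and 20.7 FPKM in mesenchyme only. Both were above the mesenchyme-only range. Ogn, a small proteoglycan, was at 32.8 and 0.458 FPKM in BcatGOF coculture, against 75.7, 25.3 and 232 FPKM in mesenchyme only, with mesenchyme-only values spread so widely that BcatGOF replicate 1 lay inside them.

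Of 14 tested ligands and receptors of the TGF-β and activin branch 6 were higher and 4 lower in both pairs, and 4 did not overlap, all on the high side. Tgfb1 was at 97.1 and 205 FPKM in BcatGOF coculture, against 70.5, 55.4 and 45.5 FPKM in mesenchyme only. Inhba, the subunit of activin A, was at 34.3 and 50.1 FPKM in BcatGOF coculture, against 13.3, 9.98 and 7.57 FPKM in mesenchyme only, and had the smallest unadjusted p of the genes described here other than Snora15 (0.000237, log2 fold change 1.94, SE 0.30 in limma). Of the 16 tested feedback and response genes of this pathway 10 were higher in both pairs, 0 were lower in both and 6 did not overlap, with medians of 0.12 and 0.62. Snai1, which represses epithelial genes, was at 109 and 197 FPKM in BcatGOF coculture, against 65.3, 74.0 and 60.1 FPKM in mesenchyme only. Skil, a feedback repressor of SMADs, was at 12.1 and 21.2 FPKM in BcatGOF coculture, against 7.89, 7.28 and 8.08 FPKM in mesenchyme only. Pmepa1, another inhibitor of the pathway, was at 90.7 and 131 FPKM in BcatGOF coculture, against 50.9, 52.9 and 80.9 FPKM in mesenchyme only. The inhibitory SMAD gene Smad7 was barely above the range in BcatGOF replicate 1, at 10.8 and 32.9 FPKM in BcatGOF coculture, against 10.0, 6.81 and 8.87 FPKM in mesenchyme only.

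Of the closely related ligands Bmp2 and Bmp4, the first was higher and the second lower in both BcatGOF libraries. Bmp2 was at 100.4 and 287 FPKM in BcatGOF coculture, against 74.4, 44.6 and 26.7 FPKM in mesenchyme only. Bmp4 was at 16.2 and 12.9 FPKM in BcatGOF coculture, against 27.1, 25.0 and 26.4 FPKM in mesenchyme only. Neither overlapped, and Bmp4 was alike in both pairs with differences of -0.71 and -0.90 (log2 fold change -0.81, SE 0.25, unadjusted p 0.013 in limma). Grem1, which binds and blocks them, was at 1376 and 608 FPKM in BcatGOF coculture, against 1307, 999.9 and 1343 FPKM in mesenchyme only, and was low in BcatGOF replicate 2 alone. Of 12 tested ligands and antagonists 4 were higher and 3 lower in both pairs, against 28.9% and 28.5% of all tested genes. The BMP target list had medians of -0.33 and 0.92, so the pairs differed in sign.

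Hedgehog signals pass from epithelium to stroma, where Gli1 and Ptch1 are induced. Gli1 was at 4.22 and 2.18 FPKM in BcatGOF coculture, against 0.113, 0.367 and 0.503 FPKM in mesenchyme only, and the receptor Ptch1 at 8.09 and 6.94 FPKM in BcatGOF coculture, against 3.72, 4.03 and 6.28 FPKM in mesenchyme only. Both were higher in BcatGOF replicate 1 than in replicate 2, unlike most genes described here. Foxf2, a stromal transcription factor downstream of Hedgehog, was at 64.4 and 163 FPKM in BcatGOF coculture, against 56.8, 54.0 and 42.6 FPKM in mesenchyme only. Of 9 tested genes of the list 5 were higher and 1 lower in both pairs, and 4 did not overlap on the high side.

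WNT ligands and R-spondins were mostly lower, with 7 of 10 lower and 3 higher in both pairs, 5 without overlap on the low side and 1 on the high side, and medians of -0.10 and -0.88. Rspo3, the main stromal R-spondin, was at 33.0 and 21.9 FPKM in BcatGOF coculture, against 34.3, 58.7 and 43.3 FPKM in mesenchyme only. Rspo2 was at 0.619 and 0.0508 FPKM in BcatGOF coculture, against 1.89, 1.08 and 4.06 FPKM in mesenchyme only, and Wnt2b at 2.49 and 0.231 FPKM in BcatGOF coculture, against 3.09, 1.94 and 7.90 FPKM in mesenchyme only. Rspo3 in BcatGOF replicate 1 was just below its partner, and Wnt2b overlapped. Wnt5a, a ligand of the non-canonical branch, was the one on the high side, at 23.9 and 68.2 FPKM in BcatGOF coculture, against 19.3, 14.7 and 18.0 FPKM in mesenchyme only. Of 8 tested genes on the list of canonical WNT feedback targets 4 were lower and 3 higher in both pairs. On the low side 3 did not overlap, and on the high side 1. The list also holds Ctnnb1, the β-catenin gene, which was higher in both pairs and overlapped. Nkd1, a feedback inhibitor, was at 10.3 and 3.47 FPKM in BcatGOF coculture, against 16.3, 14.4 and 20.1 FPKM in mesenchyme only. Apcdd1, another, was at 15.5 and 1.37 FPKM in BcatGOF coculture, against 27.7, 16.4 and 18.4 FPKM in mesenchyme only, and Axin2 at 1.91 and 0.526 FPKM in BcatGOF coculture, against 2.18, 2.25 and 3.78 FPKM in mesenchyme only. In these 3 genes both BcatGOF libraries lay below the mesenchyme-only range, by less in replicate 1 than in replicate 2. Of 7 tested secreted WNT antagonists 1 was higher and 2 were lower in both pairs, and 1 did not overlap, on the high side. That one was Notum, an enzyme that inactivates WNT proteins, at 3.74 and 14.8 FPKM in BcatGOF coculture, against 3.27, 2.44 and 0.565 FPKM in mesenchyme only. Sfrp1, the most abundant of them in mesenchyme only, was at 779.8 and 40.4 FPKM in BcatGOF coculture, against 794, 575 and 1033 FPKM in mesenchyme only, and so was low in BcatGOF replicate 2 alone.

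Most contractile genes were lower in both BcatGOF libraries. Of 15 tested genes 11 were lower and 1 higher in both pairs, 7 did not overlap on the low side, and the medians were -0.37 and -1.42. Acta2, the actin of smooth muscle, stood at 375 and 22.2 FPKM in BcatGOF coculture, against 570.2, 334 and 668 FPKM in mesenchyme only. Tagln, an actin-binding protein of the same cells, was at 325 and 38.3 FPKM in BcatGOF coculture, against 420.4, 406 and 532 FPKM in mesenchyme only. Cnn1, calponin, was at 37.3 and 3.82 FPKM in BcatGOF coculture, against 57.6, 43.6 and 67.9 FPKM in mesenchyme only. Tagln and Cnn1 did not overlap, whereas Acta2 in BcatGOF replicate 1 lay within the mesenchyme-only range. In pair 2 the differences were -3.85, -3.37 and -3.21. Targets of YAP and TAZ, which respond to tension, were lower in both pairs in 10 of 13 genes, 3 of them without overlap. F3, tissue factor, was at 145 and 26.6 FPKM in BcatGOF coculture, against 190.0, 199 and 266 FPKM in mesenchyme only, and Ccn1, a matricellular protein, at 139 and 60.2 FPKM in BcatGOF coculture, against 185, 154 and 329.8 FPKM in mesenchyme only.

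**Figure D5:**
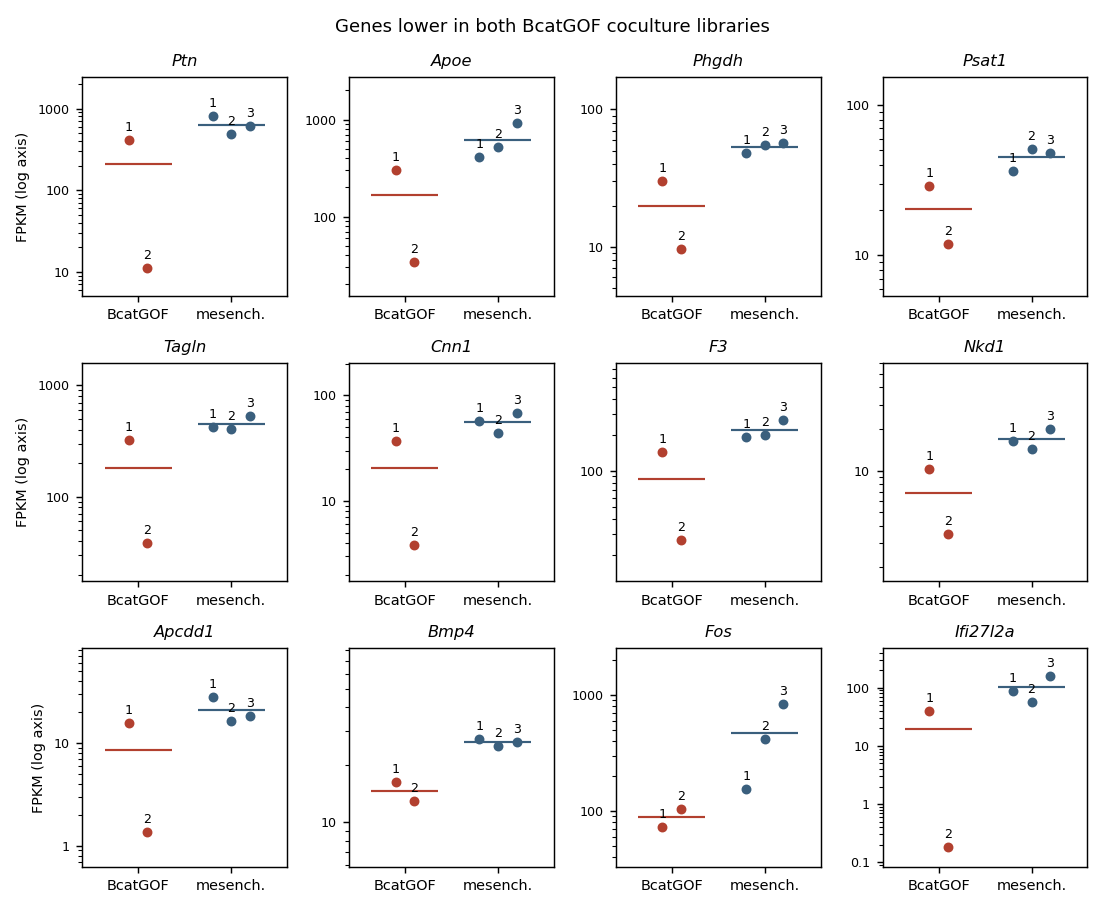
FPKM on log axes of 12 genes in each BcatGOF coculture library (left, red) and each mesenchyme-only library (right, blue), with the replicate number above each point and a line at the group mean. In all 12 both BcatGOF points lie below all 3 mesenchyme-only points, and BcatGOF replicate 2 is the lowest library in each except Fos.

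Subunits of the transcription factor AP-1 differed in direction. Fos was at 72.8 and 105 FPKM in BcatGOF coculture, against 153, 415 and 836 FPKM in mesenchyme only, and Fosb at 12.8 and 37.8 FPKM in BcatGOF coculture, against 41.7, 86.0 and 299.9 FPKM in mesenchyme only. Fosl1, a subunit associated with growth factor signalling, was at 28.6 and 95.8 FPKM in BcatGOF coculture, against 17.9, 11.4 and 4.30 FPKM in mesenchyme only. None overlapped, Fos and Fosb being lower and Fosl1 higher in both BcatGOF libraries. The mesenchyme-only libraries were themselves widely spread for all 3. Of 19 immediate early genes 12 were lower and 5 higher in both pairs.

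Cell division genes had a negative median in pair 2 alone. The list of 31 had medians of 0.01 and -1.34, with 14 lower and 1 higher in both pairs. On the low side 9 did not overlap, and on the high side 1, against 7.82% and 8.49% of all tested genes. In the main limma fit 28 were lower and 3 higher. Mki67, a marker of dividing cells, was at 3.91 and 0.478 FPKM in BcatGOF coculture, against 2.97, 2.74 and 3.22 FPKM in mesenchyme only, and Ube2c, which acts in mitosis, at 16.2 and 8.46 FPKM in BcatGOF coculture, against 17.3, 44.5 and 27.7 FPKM in mesenchyme only. BcatGOF replicate 1 was highest of the 5 libraries for Mki67 and BcatGOF replicate 2 lowest.

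Most genes of the list of amino acid stress and one-carbon genes, and of that of adipogenic and lipid genes, were lower in both BcatGOF libraries. Phgdh, which commits a glycolytic intermediate to serine, was at 30.2 and 9.71 FPKM in BcatGOF coculture, against 48.2, 55.2 and 57.3 FPKM in mesenchyme only. Psat1, the next enzyme, was at 28.9 and 11.9 FPKM in BcatGOF coculture, against 36.3, 51.3 and 48.2 FPKM in mesenchyme only. Both lay below a narrow mesenchyme-only range (log2 fold changes -1.57, SE 0.40, and -1.22, SE 0.38), and 12 of 16 genes of the amino acid stress and one-carbon list were lower in both pairs, 7 without overlap. Of 12 adipogenic and lipid genes 9 were lower in both pairs, 0 higher in both, and 4 did not overlap. Pparg, the regulator of fat cell formation, was at 13.7 and 7.58 FPKM in BcatGOF coculture, against 22.0, 22.7 and 22.9 FPKM in mesenchyme only. Apoe, a lipid carrier, was at 304 and 33.6 FPKM in BcatGOF coculture, against 411, 518 and 915 FPKM in mesenchyme only. Pparg was nearly constant in mesenchyme only, and both genes were lowest in BcatGOF replicate 2. Ptn, a growth factor of matrix and nerve, was at 408 and 11.2 FPKM in BcatGOF coculture, against 808, 487 and 612 FPKM in mesenchyme only. Igfbp5, which binds insulin-like growth factors, went the other way, at 158 and 1469.8 FPKM in BcatGOF coculture, against 98.3, 129 and 106 FPKM in mesenchyme only.

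Interferon-stimulated genes were lower in both pairs in 14 of 23 and higher in both in 1, and 2 did not overlap, both on the low side. Over all tested genes, 28.5% were lower in both pairs and 7.82% lay below without overlap. Ifi27l2a was at 39.2 and 0.183 FPKM in BcatGOF coculture, against 88.8, 56.5 and 159.8 FPKM in mesenchyme only, and Ifitm1, a membrane protein against viral entry, at 476 and 369.9 FPKM in BcatGOF coculture, against 555, 1564 and 781 FPKM in mesenchyme only. Both lay below the mesenchyme-only range, Ifi27l2a by far the more in BcatGOF replicate 2.

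The authors' deposited table for this comparison lists 2184 genes, 925 with a positive and 1259 with a negative log2 fold change, all with an adjusted p of at most 0.015 there. Of the 1955 listed genes that were tested here, 1950 had the same sign here, a positive value meaning higher in BcatGOF coculture, and 1271 had that sign in both same-number pairs. The sizes in the authors' deposited table were compared with simple ratios of the FPKM values for the 1918 tested genes that were above 0 in all 5 libraries. The ratio of BcatGOF replicate 2 to the mesenchyme-only mean lay within 0.5 (log2) of the authors' value in 1677 genes (87.4%), with a median distance of 0.192. The ratio of the mean of both BcatGOF libraries did so in 486 genes (25.3%), with a median distance of 0.774, and that of BcatGOF replicate 1 in 61 genes (3.18%). For Vegfa the authors' deposited table gives 2.34 (SE 0.21), while the differences of the 2 pairs here were 1.12 and 2.03. For Serpina3n the authors' deposited table gives -4.53 (SE 0.37), with differences of 0.23 and -4.97 here. The authors' fold changes were thus close to those of BcatGOF replicate 2 taken alone, and the libraries that entered them are not stated in the sources used here.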

How the data were processed

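The authors deposited FPKM values per gene and library for the 8 libraries, made from poly-A RNA per the labels' protocols. The authors' second deposited table gives log2 fold changes with standard errors, test scores, mean normalized counts (a signal scaled by the authors), p-values and adjusted p-values for listed genes only. Per the submitters' processing notes, the tools were kallisto 0.46.1 and DESeq2 1.40.1 and the build was mm9, with no roles given. The step that made the FPKM is not stated in the sources used here. No counts were given, so depth is unknown.

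A gene was kept if 2 or more of the 8 libraries had 1 FPKM or more (12927 genes) and transformed as log2(FPKM + 1), which shrinks differences of low genes. Group means of the 8 libraries were fitted in limma 3.58.1 (R 4.3.3, trend and robust moderation, 5 residual degrees of freedom), two-sided, with Benjamini-Hochberg adjustment and a threshold of 0.05. The code was tested on simulated data. Figures used matplotlib 3.10.9. Same-number libraries of different groups deviated together (correlation 0.301 to 0.554 in 7 pairs, against -0.483 to 0.208 in 14 others). Deviations were taken from group means, so these values depend on each other, and those of the 2 BcatGOF libraries are exact mirror images. The labels do not say what a number marks. The numbers were used to pair the samples, and a fit with the number as a block was an alternative. Further alternatives were other pseudocounts, filters, scalings and moderation, the 2 groups alone, no short RNA genes, and each library left out.

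The comparison, the 39 gene lists and the rule for named genes were chosen with earlier results of these data known. The rule took genes past the threshold, the 14 per direction with the largest difference shared by both pairs, the 8 per direction with the widest gap between pairs, the 2 most abundant members and the 2 of smallest p of each list, and 12 fixed genes. Not all of these are printed. Of the genes named, Egln3, Ndrg1, Slc16a3, Pdk1, Slc2a1, Angptl4, Osmr, Il11ra1, Epgn, Ptges, Mmp10, C3, Pmepa1, Smad7, Ptch1, Cnn1, Ogn, Mki67 and Igfbp5 are outside it and were chosen after their values were seen. Promoters and microRNAs were matched by symbol or name to RefSeq tables of GRCm38.p6, a later build than that of the notes, and no coordinate was converted.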

Additional observations from a re-analysis of the deposited data

How the results depend on the processing

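The count of genes that passed stayed at 0 higher and 1 lower under pseudocounts of 0.1 and 0.5, quantile normalization, median-ratio scaling, the replicate block, the 2 groups alone and moderation without trend and robust options. With no filter 5 genes passed as higher. With a filter at a mean of 5 FPKM, or without short RNA genes, 0 passed as lower, since Snora15 was then not tested. Leaving out 1 library at a time gave 0 to 105 genes higher and 1 to 93 lower, the top values without BcatGOF replicate 1. Without wild-type replicate 2, 1 gene, Mir133a-2, passed as higher. With the replicate block 1014 genes had an unadjusted p under 0.05, against 711 without it, and the block changed no call.

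Genes without overlap numbered 1058 to 4136 on the high side and 999 to 4006 on the low side when 1 library was left out, as fewer libraries overlap less. They numbered 1757 on the high side with no filter and 594 on the low side with a mean of at least 5 FPKM. Genes at least 1 apart in pair 1 numbered 456 with a pseudocount of 0.1, and 99 both with a mean of at least 5 FPKM and without short RNA genes. In pair 2 they numbered 879 with a mean of at least 5 FPKM. In both pairs and the same direction they numbered 95, against 213 with a pseudocount of 0.1, 54 with a mean of at least 5 FPKM and 61 without short RNA genes. Where values moved for other reasons than fewer genes or libraries, the cause was not tested.

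Of the 102 genes given with values, 7 changed sign, all without BcatGOF replicate 2. Over the libraries left out in turn, the log2 fold change ran over -1.91 to 0.093 for Osmr, -4.71 to 0.65 for Il33, -1.18 to 3.70 for Lcn2, -4.91 to 0.60 for Serpina3n, -0.99 to 0.19 for Grem1, -4.24 to 0.0025 for Sfrp1 and -1.43 to 0.31 for Mki67. Of the medians of the 39 lists, 22 kept their sign under every alternative, among them hypoxia, glycolysis, EGF ligands, TGF-β response, Hedgehog, WNT ligands, contractile, cell cycle, amino acid and adipogenic genes. Another 13 had the other sign without BcatGOF replicate 2, among them collagens, BMP targets and YAP and TAZ targets. No list of a stromal programme changed sign under a scaling, and no alternative moved the median of all genes by 0.1. With 2 BcatGOF libraries, 1 of them close to its partner, and no read counts, the precision is set by the number of libraries.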

Other observations

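Some of the genes with the widest gap between the 2 same-number differences are given as values chosen for that gap. S100a8, a calcium-binding antimicrobial protein, was at 6.90 and 519.5 FPKM in BcatGOF coculture, against 10.2, 13.9 and 0.762 FPKM in mesenchyme only. Slpi, a secreted protease inhibitor of mucosal surfaces, was at 14.8 and 428 FPKM in BcatGOF coculture, against 10.1, 12.9 and 0.688 FPKM in mesenchyme only. Both were far above the mesenchyme-only range in BcatGOF replicate 2 and in or near it in BcatGOF replicate 1. The opioid peptide precursor Penk was at 13.1 and 351 FPKM in BcatGOF coculture, against 4.15, 5.18 and 1.55 FPKM in mesenchyme only, and the peptide hormone Cck at 142 and 1383 FPKM in BcatGOF coculture, against 147, 75.4 and 9.63 FPKM in mesenchyme only. Kcnk5, a potassium channel, was at 0.486 and 31.7 FPKM in BcatGOF coculture, against 0.151, 0.287 and 0.155 FPKM in mesenchyme only, and the carboxypeptidase Cpm at 2.11 and 82.4 FPKM in BcatGOF coculture, against 0.964, 0.817 and 0.48 FPKM in mesenchyme only. Penk, Kcnk5 and Cpm did not overlap. On the low side of the same gap, Wfdc17 was at 56.2 and 0.51 FPKM in BcatGOF coculture, against 77.9, 129.6 and 21.2 FPKM in mesenchyme only.

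Rows of short RNA genes made up a share of the genes that differed alike in both pairs. Mir133a-2 was at 9.24 and 19.3 FPKM, Mir365-2 at 16.8 and 4.74 FPKM and Mir8116 at 5.76 and 15.2 FPKM in BcatGOF coculture, and all 3 were at 0 in every mesenchyme-only library. Mir8117 was at 0 in both BcatGOF libraries, against 8.26, 10.5 and 17.7 FPKM in mesenchyme only. Like the row of Mir210, these rows are no measure of the mature microRNAs in libraries made from poly-A RNA. Of the small nucleolar RNAs, Snord100 was at 5.38 and 7.72 FPKM in BcatGOF coculture, against 20.7, 24.6 and 12.3 FPKM in mesenchyme only. Snord52 was at 24.2 and 14.3 FPKM in BcatGOF coculture, against 52.6, 62.4 and 32.2 FPKM in mesenchyme only. Both were below the mesenchyme-only range and well above 0. How well such libraries measure small nucleolar RNAs was not tested. With short RNA genes left out, genes at least 1 apart in pair 1 numbered 99 in place of 246, and in pair 2 they numbered 1313 in place of 1452.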
